A study of Arabidopsis thaliana with 27 samples.

Results

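The late step of shoot induction was followed in callus of the Arabidopsis thaliana UPF1 mutant, as the comparison of upf1-1 on day 6 with upf1-1 on day 3 of culture on shoot-inducing medium. The sample labels chose the arrays, 3 of upf1-1 day 6 and 3 of upf1-1 day 3, out of 27 arrays in all. Each array is one RNA sample hybridised to an Affymetrix gene chip, and 13286 genes could be named and tested. In every group the callus came from hypocotyls of 12-day-old Columbia (Col-0) seedlings and had spent 6 days on callus-inducing medium before the transfer. The mutant is labelled lba1-1/upf1-1 and is called upf1-1 here. The other genotypes are upf3-1, a mutant of UPF3, and wild type Col-0. Each genotype was sampled on days 0, 3 and 6, with 3 arrays a group. Callus was not also kept on callus-inducing medium for the same time, which means that days in culture and days on shoot-inducing medium cannot be told apart. Separate cultures are not named for the replicates, and the p-values therefore measure the spread among these samples, which may be technical. The design text of the series does not name day 6, which was taken from the labels of the samples. The title of upf1-1 day 0 replicate 1 also calls it wild type, against its other labels, and that array enters no comparison below apart from the day 0 means and the pooled spread of the fit.

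UPF1 is an RNA helicase at the centre of nonsense-mediated mRNA decay (NMD), the pathway that degrades transcripts whose stop codon is premature or lies in an unusual place, and UPF3 helps to link it to the exon junction complex. The lba1 allele of UPF1 is a missense allele, so the mutant is not a complete loss of the protein. Callus grown from hypocotyls on auxin-rich medium resembles the tip of a lateral root, and the cytokinin-rich shoot-inducing medium then lets part of it form shoot meristems while other cells differentiate in other ways. The arrays measured bulk tissue, in which fewer cells of a type and less RNA per cell cannot be told apart.

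Values are log2 signals made with RMA (robust multi-array average), which gives every array the same distribution, so that a shift common to most genes is removed. Replicates correlated at r = 0.9937 to 0.996 on day 6 and 0.996 to 0.997 on day 3, over all probe sets. All 27 arrays had their nearest array within their own group. Poly-A spike-in controls averaged 5.44 ± 0.13 on day 6 and 5.78 ± 0.097 on day 3 of upf1-1 (SD, n = 3 each). Results with the arrays rescaled to these controls are given below. The 3′ minus 5′ signal of the control transcripts, a sign of RNA integrity, averaged 1.16 ± 0.10 on day 6 and 1.25 ± 0.029 on day 3. UPF1 itself was not analysed here. UPF3 had signals of 9.54, 9.45 and 9.57 on day 6, against 9.73, 9.61 and 9.61 on day 3 of upf1-1, and did not pass the test (log2 change -0.13, adjusted p = 0.53). Its mean on day 6 was 5.87 in upf3-1 and 8.99 in the wild type, which goes with the upf3-1 label.

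On day 6 of upf1-1, 5 of 19 measured chitinases and pathogenesis-related proteins, 8 of 55 class III peroxidases, 5 of 22 berberine bridge-like oxidases and 3 of 19 expansins had risen over day 3. On the other side, 6 of 15 heat shock proteins and co-chaperones and 2 of 12 early auxin response genes had fallen. So had BBM, 1 of 4 callus factors measured. Of 61 GDSL lipases, 4 had fallen and 2 had risen. Lists and members were chosen with earlier results of these data known, so these counts are not independent support for a theme. At an adjusted p under 0.05 (limma with Benjamini-Hochberg adjustment, two-sided), 415 genes were called, 3.12% of those tested. Of these, 249 were higher on day 6 (1.87%) and 166 were lower (1.25%). A change of at least 2-fold was found for 46 of the higher genes (0.346%) and for 12 of the lower genes (0.0903%). The 3 day 6 and 3 day 3 arrays did not overlap in 409 of the called genes (3.08%), and in 2544 of all genes (19.1%). With the arrays centred on 5 reference genes in place of RMA's own scale, 338 genes were called and the share called higher was 71.9%, against 60% in the RMA values. Centred on the poly-A spike-ins, which moved the median log2 change of all genes to 0.32, 2067 genes were called and 99.1% were higher, so directions here are relative to the typical transcript. Rescaling adds the same amount to the change of every gene. All falls among the 68 named genes called were larger than that amount, so none could change direction. Of the 68, 25 kept the call under every alternative that kept their probe set.

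**Figure D1:**
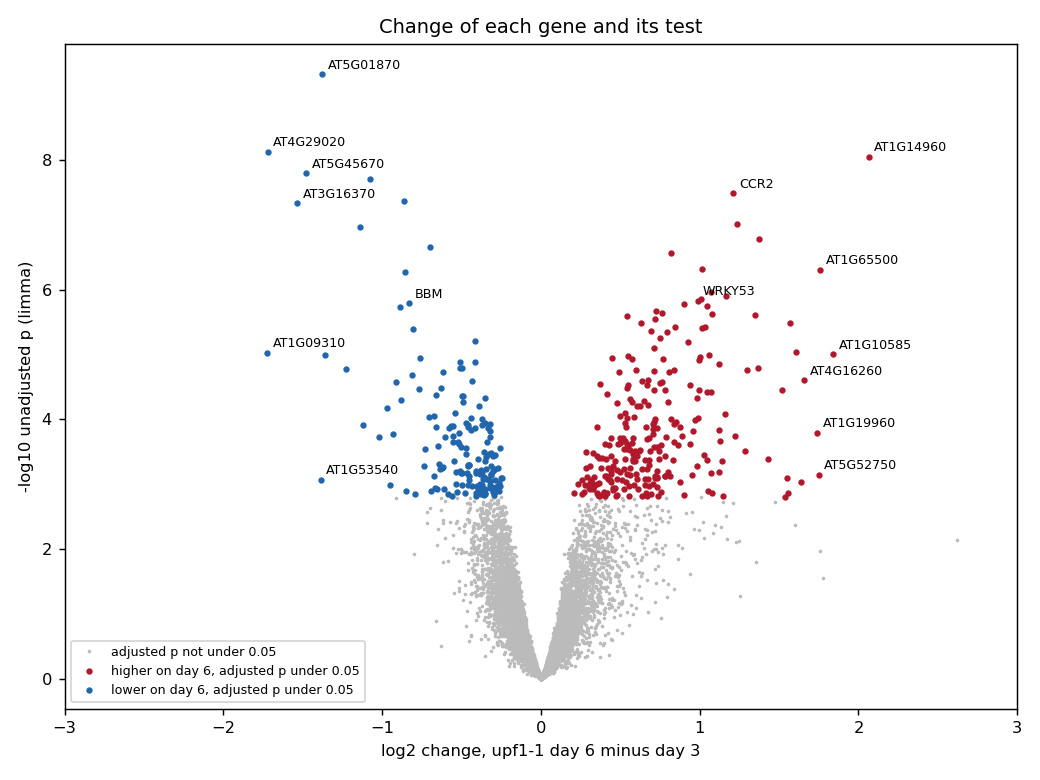
Each point is a gene, with its log2 change in upf1-1 (day 6 minus day 3) on the horizontal axis and the -log10 of the unadjusted limma p on the vertical axis. Red points are the 249 genes called higher on day 6, blue points the 166 called lower and grey points the rest; AT1G14960 stands farthest to the right of the called genes at 2.06, and the grey point farther out is AT3G60420 at 2.62, with an adjusted p of 0.12.

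The calls rested on 3 arrays a day and moved with single arrays. Without day 6 replicate 2 the count fell to 116, without day 3 replicate 3 to 125, without day 3 replicates 1 or 2 to 238 or 240, and without day 6 replicate 3 to 257, while it was 660 without day 6 replicate 1. Of the 68 named genes called, 27 kept the call without each of the 6 arrays in turn. For the others, the arrays whose removal ended the call are given beside them. A call was more frequent among genes of middling signal: with the genes split by mean signal into 4 bins of equal size, the lowest bin held 11 higher and 4 lower calls, the next 87 and 42, the third 94 and 74, and the highest 57 and 46. Protein-coding genes made up 248 of the higher and 165 of the lower calls.

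The gene with the largest rise was AT1G14960, of the major latex protein family of small lipid-binding proteins. Its log2 signals were 6.93, 7.26 and 7.58 on day 6, against 5.44, 5.48 and 4.67 on day 3. That is a log2 change of 2.06 ± 0.24 (SE of the fit), or 4.18-fold, with an adjusted p of 4.0e-05. All day 6 arrays lay above all day 3 arrays, which the rule for naming the largest changes asked for. Day 3 already lay above day 0, where the mean was 3.91. The bHLH transcription factor gene AT1G10585 followed with 8.04, 7.86 and 8.09 on day 6, against 6.18, 6.70 and 5.59 on day 3 (log2 change 1.84 ± 0.33, adjusted p = 0.0029). Its day 0 mean of 6.54 was near its day 3 mean of 6.16. AT1G65500, a gene with no role named here, had 8.69, 8.67 and 8.48 on day 6, against 6.40, 7.04 and 7.13 on day 3 (1.76 ± 0.26, adjusted p = 0.00044). Its neighbours on chromosome 1, AT1G65490 and AT1G65510, singled out after their values were seen, were called too, with log2 changes of 0.82 and 0.74.

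Of the 15 largest rises, 3 more that belong to none of the lists described below kept their calls without each array. AT1G49750, a leucine-rich repeat protein, had 6.52, 6.54 and 6.45 on day 6, against 4.86, 4.77 and 5.17 on day 3 (log2 change 1.57 ± 0.26, adjusted p = 0.0014). AT5G10770, an aspartyl protease, had 7.58, 7.69 and 7.41 on day 6, against 6.35, 6.21 and 6.00 on day 3 (1.38 ± 0.19, adjusted p = 2.0e-04). In both the days were separated by more than 1 log2 unit. AT2G15220, a plant basic secretory protein, rose by 1.61 on the log2 scale, on a probe set that may cross-hybridise. AT1G14960, AT1G10585 and AT1G65500 kept theirs too.

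Less stable were 6 further genes of the 15. AT5G52750, a heavy-metal-associated domain protein, had 5.12, 5.41 and 5.47 on day 6, against 3.43, 3.74 and 3.59 on day 3 (1.75 ± 0.45, adjusted p = 0.034). AT1G19960, of no role named here, had 6.89, 7.13 and 7.35 on day 6, against 5.12, 5.48 and 5.54 on day 3 (1.74 ± 0.39, adjusted p = 0.014). AT5G39670, an EF-hand calcium-binding protein, had 6.00, 6.09 and 5.72 on day 6, against 4.51, 4.36 and 4.28 on day 3 (1.55 ± 0.43, adjusted p = 0.047). In these 3 the upf1-1 replicates lay close together, while the SE of the fit pools the spread of all 9 groups. That their days did not overlap follows from the rule by which the 15 were named. The remaining 3 were AT4G39675 (log2 change 1.55), AT2G25510 (1.54) and the AAA-type ATPase AT3G28580 (1.43). Left out in turn, day 6 replicates 2 and 3 each ended the calls of all 6, and so did day 3 replicate 3 except for AT1G19960. AT5G39670 lost its call without any 1 of the 6 arrays, and the highest adjusted p without an array was 0.203, for AT4G39675. Day 3 replicate 1 ended the calls of all but AT4G39675, and day 3 replicate 2 those of AT5G52750, AT5G39670, AT4G39675 and AT2G25510.

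**Figure D2:**
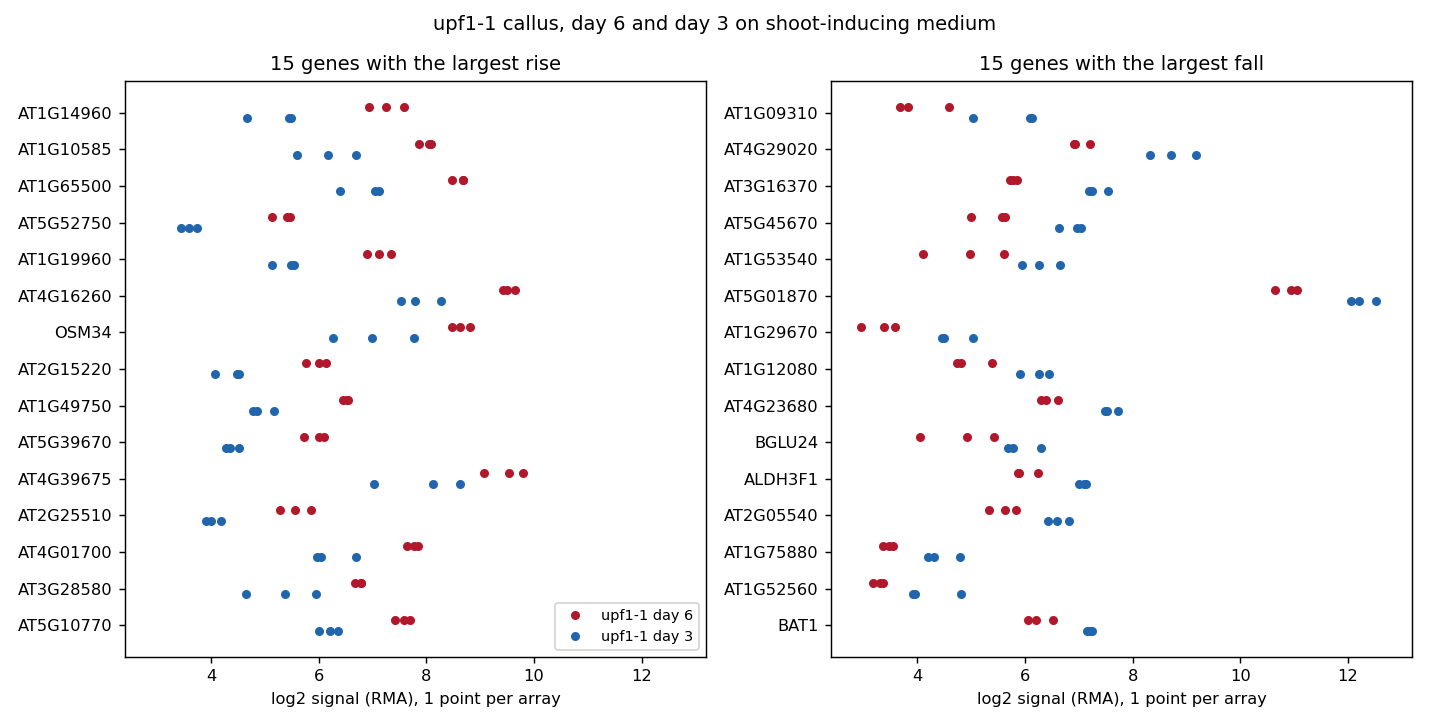
Log2 signals of the 15 genes with the largest rise (left) and the 15 with the largest fall (right) among called genes whose arrays do not overlap, with 1 point per array, day 6 in red and day 3 in blue. The 3 day 6 arrays lie apart from the 3 day 3 arrays in every gene shown, since the rule asked for it.

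Chitinases and pathogenesis-related proteins are secreted or vacuolar enzymes that attack microbial walls and are used as markers of defence. Of 19 measured, 5 rose and 0 fell, against 1.87% called higher and 1.25% called lower among all genes. The median log2 change of the list was 0.43, against -0.02 over all genes. AT4G16260, a β-1,3-glucanase, had 9.42, 9.50 and 9.65 on day 6, against 7.53, 8.27 and 7.80 on day 3 (1.66 ± 0.32, adjusted p = 0.0047). OSM34, an osmotin of the PR-5 type, had 8.63, 8.48 and 8.82 on day 6, against 6.98, 7.76 and 6.26 on day 3 (1.64 ± 0.43, adjusted p = 0.038). Their day 0 means were 9.33 and 9.99, so both genes were lowest on day 3. The chitinase AT4G01700 had 7.77, 7.64 and 7.84 on day 6, against 6.04, 6.68 and 5.96 on day 3 (1.52 ± 0.30, adjusted p = 0.0055). The chitinase ChiC had 5.54, 5.64 and 6.09 on day 6, against 4.55, 4.38 and 4.23 on day 3 (1.37 ± 0.25, adjusted p = 0.0036). The fifth was AT2G43620, with a log2 change of 0.56. AT4G16260, AT4G01700 and ChiC kept their calls without each array, while OSM34 lost its call without any 1 of day 6 replicates 1, 2 and 3 and day 3 replicates 1 and 3 (adjusted p up to 0.195). The list kept 3 to 5 calls when an array was left out.

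Among WRKY factors and other defence regulators, 3 of 10 measured rose and 0 fell, against 1.87% higher and 1.25% lower among all genes. WRKY53, a regulator of leaf senescence and defence, had 5.56, 5.35 and 5.47 on day 6, against 4.40, 4.55 and 4.45 on day 3 (0.99 ± 0.15, adjusted p = 9.9e-04). STZ, a zinc finger repressor of stress responses, had 6.94, 7.04 and 6.86 on day 6, against 5.58, 5.99 and 5.90 on day 3 (1.12 ± 0.25, adjusted p = 0.013). RING1, an E3 ubiquitin ligase gene tied to programmed cell death, rose by 1.08 on the log2 scale (adjusted p = 0.047). The other 7, WRKY6 and WRKY22 among them, had log2 changes between -0.18 and 0.37. WRKY53 kept its call without each array, STZ lost it without day 6 replicate 2 or day 3 replicate 1 (adjusted p up to 0.069), and RING1 lost it without any 1 of the 6 (up to 0.146). With the reference genes as scale, 2 of the 3 were called.

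Class III peroxidases are secreted haem enzymes that cross-link or loosen the cell wall. Of 55 measured, 8 rose and 0 fell, against 1.87% called higher and 1.25% called lower among all genes. AT3G49960 had 6.99, 8.04 and 7.72 on day 6, against 6.67, 6.07 and 6.11 on day 3 (1.30 ± 0.24, adjusted p = 0.0036), and had been at a mean of 3.88 on day 0. PRX52, a peroxidase with a part in lignification, had 7.54, 7.47 and 7.54 on day 6, against 6.18, 6.67 and 6.03 on day 3 (1.22 ± 0.28, adjusted p = 0.016). Day 6 of PRX52 was tight and day 3 was not, yet the days did not overlap. AT2G18980 and AT1G34510 rose by 1.15 and 1.13 on the log2 scale. The median log2 change over the 55 was 0.07, and 47 were not called. Without 1 array, 1 to 10 peroxidases were called higher, the fewest without day 6 replicate 2, and 1 was called lower without day 6 replicate 1. With the 6 arrays alone in the fit, or with a trended and robust variance, 5 were called higher. AT3G49960 kept its call throughout, PRX52 lost it without day 6 replicate 2 or day 3 replicates 1 or 3 (adjusted p up to 0.0865), AT1G34510 without day 6 replicates 2 or 3 or day 3 replicate 3 (up to 0.123), and AT2G18980 without any 1 array (up to 0.177).

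Berberine bridge-like oxidases are secreted flavin enzymes, several of which oxidise oligosaccharides released from the wall. Of 22 measured, 5 rose and 0 fell, against 1.87% called higher and 1.25% called lower among all genes. AT5G44400 had 9.03, 9.54 and 9.43 on day 6, against 8.26, 8.03 and 8.01 on day 3 (1.23 ± 0.16, adjusted p = 1.4e-04). AT5G44380 had 7.58, 8.29 and 8.22 on day 6, against 6.99, 6.96 and 6.29 on day 3 (1.28 ± 0.30, adjusted p = 0.021). These 2 flank AT5G44390 on chromosome 5, which was called at 0.64 although its arrays overlapped (6.81, 7.68 and 7.65 on day 6, against 7.02, 6.59 and 6.61 on day 3). AT4G20860 had 5.53, 5.55 and 5.24 on day 6, against 4.44, 4.57 and 4.18 on day 3 (1.04 ± 0.16, adjusted p = 0.0010), and AT4G20830 rose by 0.68. Probe sets of near copies may share signal, which was not tested. AT5G44400 and AT4G20860 kept their calls without each array. AT5G44380 lost its call without day 6 replicates 2 or 3 or day 3 replicate 3 (adjusted p up to 0.122), and AT4G20830 without day 6 replicate 2 or any day 3 array (up to 0.139).

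Of 45 listed phenylpropanoid and lignin genes 4 were measured, and 1 rose, the cinnamoyl-CoA reductase gene CCR2. CCR2 had 7.22, 7.26 and 7.27 on day 6, against 6.14, 6.00 and 5.97 on day 3 (1.21 ± 0.15, adjusted p = 7.3e-05), and its call was kept in every alternative. The other 3 phenylpropanoid genes measured were not called, HCT among them with a log2 change of 0.01. Of 51 UDP-glycosyltransferases, which attach sugars to hormones, phenolics and foreign compounds, 4 rose and 0 fell, against 1.87% higher and 1.25% lower among all genes, and the family's median log2 change was -0.02, with 28 of 51 below 0. The 4 became 0 without day 6 replicate 2 or day 3 replicate 3, and 2 with the 6 arrays alone in the fit. UGT72E2, which glucosylates monolignols, had 7.04, 7.56 and 7.49 on day 6, against 6.60, 6.45 and 6.06 on day 3 (0.99 ± 0.21, adjusted p = 0.011). UGT76D1, GT72B1 and UGT71B1 rose by 0.64, 0.50 and 0.41. UGT72E2 and GT72B1 lost their calls without day 6 replicate 2 or day 3 replicate 3 (adjusted p up to 0.0759), UGT76D1 also without day 6 replicate 3 or day 3 replicate 2 (up to 0.15), and UGT71B1 without day 6 replicate 2 or any day 3 array (up to 0.121).

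Root hair genes, which mark hair cells of the root epidermis, moved together in sign. All 6 measured were higher on day 6, with a median log2 change of 0.80. Of the 6, 3 passed the test, against 1.87% called higher among all genes. AT5G04960, an invertase and pectin methylesterase inhibitor family protein, had 6.27, 6.85 and 6.68 on day 6, against 5.96, 5.73 and 5.05 on day 3 (1.03 ± 0.25, adjusted p = 0.023). The root hair expansin EXPA18 had 6.90, 7.45 and 7.32 on day 6, against 6.68, 6.48 and 5.96 on day 3 (0.85 ± 0.18, adjusted p = 0.012). EXPA7, its close relative, had 6.83, 7.06 and 7.28 on day 6, against 6.59, 6.24 and 6.13 on day 3 (0.74 ± 0.17, adjusted p = 0.021). Day 0 means of these 3 were 3.98, 4.49 and 4.43, below the day 3 means of 5.58, 6.37 and 6.32. Expansins loosen the cell wall during growth. Of 19 measured, 3 rose and 0 fell, against 1.87% called higher and 1.25% called lower among all genes. The third was EXPA8, with 7.65 ± 0.33 on day 6, against 6.57 ± 0.24 on day 3 (SD, n = 3 arrays each). Its days did not overlap (log2 change 1.08 ± 0.17, limma adjusted p = 0.0012). EXPA8 kept its call without each array. EXPA18 lost it without day 6 replicate 2 or day 3 replicate 3 (adjusted p up to 0.0927), AT5G04960 also without day 6 replicate 3 (up to 0.144), and EXPA7 without day 6 replicates 2 or 3 or day 3 replicates 2 or 3 (up to 0.109). Without 1 array, 0 to 5 of the root hair genes and 1 to 6 of the expansins were called, and with the 6 arrays alone in the fit 1 root hair gene was.

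Of the photosynthesis genes measured, few passed the test. All 6 photosystem and antenna genes measured were higher on day 6, with log2 changes between 0.34 and 0.75 and unadjusted p under 0.05, and 1 of them passed the adjusted test. That gene, LHCB4.2, encodes a minor antenna protein of photosystem II and had 6.56, 6.69 and 6.60 on day 6, against 5.99, 5.47 and 6.14 on day 3 (0.75 ± 0.14, adjusted p = 0.0048). Its mean was 6.62 on day 6, against 6.54 on day 0. Of 5 Calvin cycle and photorespiration genes, 0 were called at the adjusted threshold and 1 at an unadjusted p under 0.05, HPR, a peroxisomal hydroxypyruvate reductase, at 0.51 (adjusted p = 0.052). The 69 genes encoded in the plastid had a median log2 change of -0.04, with 42 below 0 and 27 above. Of these psaJ alone was called, at 0.47 (adjusted p = 0.0495), against 1.87% called higher among all genes, and it lost the call without any 1 array (up to 0.175).

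Of 75 genes listed as marks of the shoot meristem and its organs, 7 were measured, and these showed no called change. The rest of that list was not tested. The 7 measured, which include CLV3, UFO, LAS, PHV, YAB3, YAB5 and TCP15, had log2 changes between -0.09 and 0.05, and 0 had an unadjusted p under 0.05. CLV3, a signal peptide of the meristem's stem cells, averaged 3.54 on day 6 and 3.49 on day 3, near the low end of the arrays' range. The cytokinin response gene RR16, a type-A response regulator that damps the signal, had 6.37, 6.77 and 6.20 on day 6, against 5.23, 6.05 and 5.79 on day 3 (0.76 ± 0.21, adjusted p = 0.047). Another regulator of the same type, ARR15, averaged 9.72 on day 6 and 9.77 on day 3 and was not called. RR16 lost its call without day 6 replicates 1 or 2 or day 3 replicates 1 or 3 (adjusted p up to 0.249). Among 9 cell cycle genes and 7 histone genes, 0 were called and 1 of each had an unadjusted p under 0.05, TSO1 at -0.22 and HTB4 at -0.18. The stomatal factors SPCH and MUTE averaged 2.92 and 3.28 on day 6, against 3.06 and 3.13 on day 3.

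**Figure D3:**
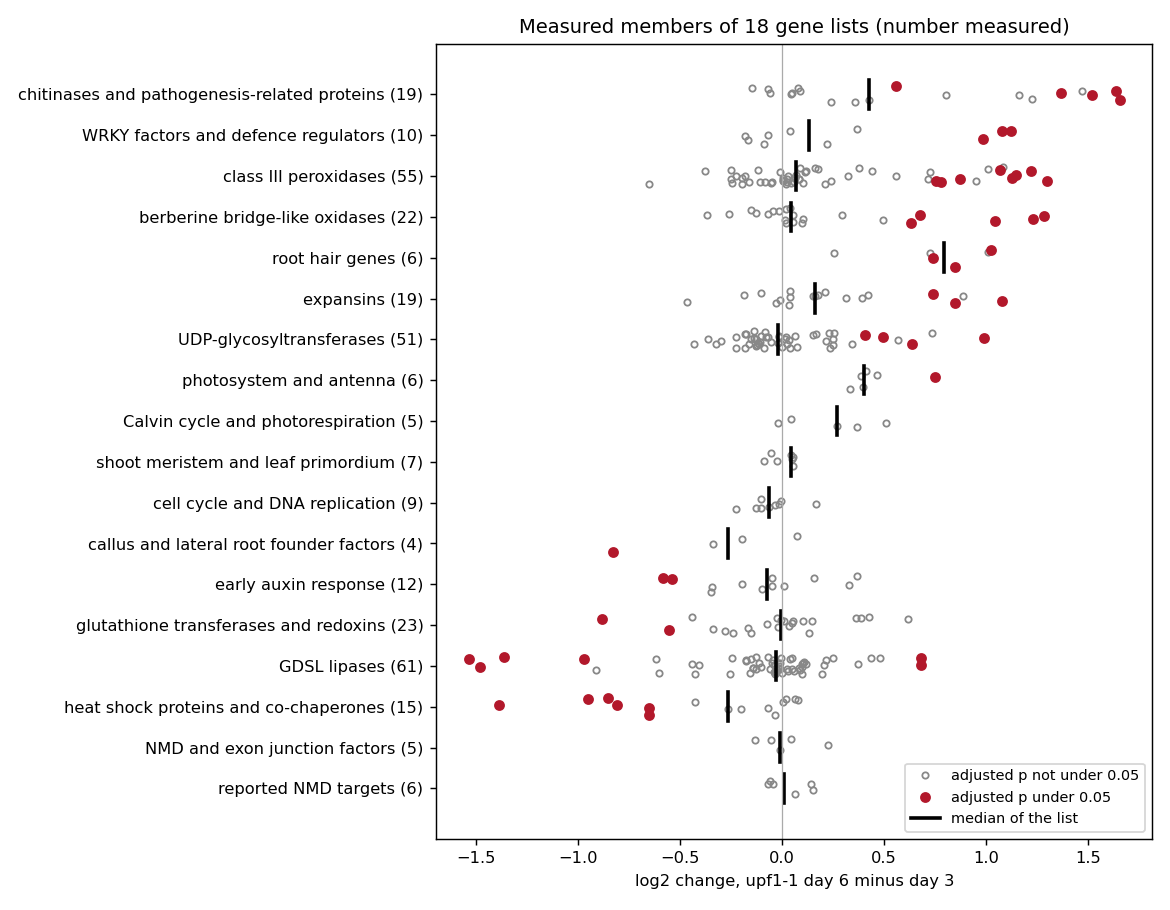
Log2 change of every measured member of 18 gene lists in upf1-1, day 6 minus day 3, with filled red points for genes called, open grey points for the rest and a black bar at the list's median. Calls lie to the right in the defence, peroxidase, oxidase, root hair and expansin lists, to the left in the heat shock and early auxin lists, and on both sides among GDSL lipases.

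Among the genes that fell, AT1G09310, of a family with a domain of unknown function, led with 3.82, 3.67 and 4.58 on day 6, against 6.12, 5.03 and 6.10 on day 3 (log2 change -1.73 ± 0.31, adjusted p = 0.0028). AT4G29020, a glycine-rich protein, had 6.91, 7.21 and 6.92 on day 6, against 8.32, 8.71 and 9.18 on day 3 (-1.72 ± 0.20, adjusted p = 4.0e-05). It had averaged 11.68 on day 0, so day 6 was the lowest of the 3 days. AT5G01870, a lipid transfer protein and one of the strongest signals here, had 10.65, 10.94 and 11.05 on day 6, against 12.05, 12.20 and 12.52 on day 3 (-1.38 ± 0.14, adjusted p = 6.3e-06). That adjusted p was the smallest among the 30 genes named at the 2 ends. AT4G23680, of the major latex protein family as AT1G14960 is, had 6.30, 6.40 and 6.61 on day 6, against 7.52, 7.72 and 7.49 on day 3 (-1.14 ± 0.15, adjusted p = 1.4e-04), and had been at a mean of 3.41 on day 0. AT1G12080 fell by 1.23 and ALDH3F1, an aldehyde dehydrogenase, by 1.07 on the log2 scale. All of these kept their calls without each array. BGLU24, a β-glucosidase, fell by 1.12, the glycine-rich protein AT2G05540 by 1.02 and BAT1, an acyltransferase that modifies brassinosteroids, by 0.93, and each lost its call without day 6 replicate 2. Day 3 replicate 1 ended the call of BGLU24 too (adjusted p up to 0.10), day 3 replicate 3 those of AT2G05540 (up to 0.102) and BAT1, and day 3 replicate 2 that of BAT1 (up to 0.069).

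GDSL lipases are secreted esterases, some of which act on cutin and other surface lipids. Of 61 measured, 4 fell and 2 rose, against 1.25% called lower and 1.87% called higher among all genes. The 4 that fell were all among the 15 largest falls. AT3G16370 had 5.78, 5.73 and 5.85 on day 6, against 7.24, 7.18 and 7.54 on day 3 (-1.53 ± 0.19, adjusted p = 7.8e-05). AT5G45670 had 5.57, 4.99 and 5.63 on day 6, against 6.63, 7.04 and 6.96 on day 3 (-1.48 ± 0.17, adjusted p = 5.3e-05). Day 0 means were 9.17 and 9.13, so both genes had already dropped before day 3. AT1G29670 had 2.95, 3.38 and 3.58 on day 6, against 4.47, 4.49 and 5.02 on day 3 (-1.36 ± 0.24, adjusted p = 0.0029). AT1G75880 had 3.36, 3.55 and 3.47 on day 6, against 4.19, 4.31 and 4.78 on day 3 (-0.97 ± 0.20, adjusted p = 0.0084), and lost its call without day 3 replicate 3 (adjusted p = 0.0724). The 2 that rose were AT1G28600 and AT5G55050, at 0.68 each, and the median over the family was -0.03. With the poly-A spike-ins as scale, 4 GDSL lipases were called lower too, and 8 higher.

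Small heat shock proteins and co-chaperones hold unfolding proteins during stress. Of 15 measured, 6 fell and 0 rose, against 1.25% called lower and 1.87% called higher among all genes. The list's median log2 change of -0.26 turned to 0.07 with the poly-A spike-ins as scale. AT1G53540, a cytosolic small heat shock protein, had 5.61, 4.11 and 4.98 on day 6, against 5.95, 6.26 and 6.66 on day 3 (-1.39 ± 0.36, adjusted p = 0.037). ATHSP22.0, a small heat shock protein of the endomembranes, had 4.50, 4.29 and 4.56 on day 6, against 5.53, 5.03 and 5.20 on day 3 (-0.81 ± 0.14, adjusted p = 0.0015). Day 0 means of these 2 were 4.12 and 4.37, below the day 3 means of 6.29 and 5.25. AT1G52560 fell by 0.95 and AT5G51440 by 0.85 on the log2 scale, and the 2 other members called, AT2G29500 and AT5G48570, each had a change of -0.65. The arrays of AT2G29500 overlapped, with 7.47 on day 6 in replicate 1 and 7.45 on day 3 in replicate 1. Of the 4 named by size, ATHSP22.0 alone kept its call without each array. AT1G53540 lost it without day 6 replicates 2 or 3 or any day 3 array (adjusted p up to 0.239), AT1G52560 without day 6 replicates 2 or 3 or day 3 replicate 3 (up to 0.227), and AT5G51440 without any array but day 3 replicate 1 (up to 0.18). Without 1 array, 1 to 5 members were called lower, 4 with the reference genes as scale and 1 with the poly-A spike-ins. With a replicate block, with the 6 arrays alone in the fit, or with a trended and robust variance, 2 were called lower.

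The callus and auxin genes that were called went down. BBM, an AP2 factor that promotes embryonic and regenerative growth, had 5.24, 5.53 and 5.51 on day 6, against 6.39, 5.92 and 6.46 on day 3 (-0.83 ± 0.13, adjusted p = 0.0010). It had averaged 8.40 on day 0. The other founder factors measured were LBD16 (log2 change -0.19), LBD29 (0.08) and PUCHI (-0.34), none of them called, with day 6 means of 6.47, 3.76 and 4.62. Of 12 early auxin response genes, 2 fell and 0 rose, against 1.25% called lower and 1.87% called higher among all genes. Both that fell were GH3 enzymes, which conjugate auxin to amino acids. WES1 had 9.52, 9.22 and 9.89 on day 6, against 10.10, 10.12 and 10.15 on day 3 (-0.58 ± 0.13, adjusted p = 0.013). GH3.3 had 10.88, 10.41 and 10.89 on day 6, against 11.17, 11.37 and 11.25 on day 3 (-0.54 ± 0.14, adjusted p = 0.032). In both, the day 3 arrays were level with each other and all day 6 arrays lay below them. With the 6 arrays alone in the fit 0 of the 12 were called, and with the poly-A spike-ins as scale 0 were called lower and 3 higher, with a median of 0.26, against -0.07 in the RMA values. The median of the founder list, -0.26, turned to 0.07 with the poly-A spike-ins as scale. BBM kept its call without each array, though not with the poly-A spike-ins as scale (adjusted p = 0.0564). WES1 lost its call without day 6 replicate 2 or day 3 replicate 3 (up to 0.109), and GH3.3 without day 6 replicate 2 or any day 3 array (up to 0.208).

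Smaller groups held 1 or 2 calls each, where 1.87% of all genes were called higher and 1.25% lower. These calls are given as single genes and not as results about their lists. Of 23 glutathione transferases and redoxins, which detoxify and reduce, GSTU25 fell by 0.88 and GSTU22 by 0.55. GSTU25 had 8.78, 8.70 and 9.06 on day 6, against 9.81, 9.53 and 9.84 on day 3 (adjusted p = 0.0070). Its day 0 mean of 8.77 was as low as day 6, so the high values were those of day 3. With the poly-A spike-ins as scale, 0 of the 23 were called lower and 6 higher. Of 13 xyloglucan and pectin enzymes, XTH20, a xyloglucan endotransglucosylase, fell by 0.51, and of 9 cellulose and arabinogalactan genes CSLC12, a glucan synthase, rose by 0.53. Of 13 nutrition genes, the nitrate transporter family member AT2G26690 rose by 0.84 and the glucosinolate transporter GTR2 by 0.62, and of 23 sugar genes the sugar transporter SWEET7 rose by 0.46. Without day 6 replicate 2 each of these 7 calls was lost, and without day 3 replicate 3 too. GSTU22, GTR2, CSLC12 and SWEET7 also lost theirs without day 3 replicate 1, CSLC12 and SWEET7 without day 3 replicate 2, GTR2 and SWEET7 without day 6 replicate 3, and XTH20 without day 6 replicate 1. The highest adjusted p without an array was 0.189, for SWEET7.

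The NMD machinery and its targets are the genes that bear most directly on the mutation. Of 5 NMD and exon junction factors, 0 were called, and 0 had an unadjusted p under 0.05. Of 6 reported NMD targets, 0 were called and 0 had an unadjusted p under 0.05, with log2 changes between -0.07 and 0.15. NMD can also act on mRNAs that carry an upstream open reading frame, and of 10 measured genes with a conserved one 1 rose. It was AT5G15950, an S-adenosylmethionine decarboxylase of polyamine synthesis, with 8.16, 8.67 and 9.06 on day 6, against 8.03, 7.80 and 7.12 on day 3 (0.98 ± 0.24, adjusted p = 0.029). In the wild type its means were 7.61 on day 6 and 6.09 on day 3, and the change there was 1.52 (adjusted p = 4.0e-04). The difference between the genotypes in that change was -0.54 (unadjusted p = 0.13). AT5G15950 lost its upf1-1 call without day 6 replicates 2 or 3 or day 3 replicates 2 or 3 (adjusted p up to 0.169).

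The lists were measured only in part, such as 12 of 123 early auxin response, 2 of 55 cytokinin and 6 of 54 photosystem and antenna genes. Unmeasured members are not covered by any count here. Of the 46 lists examined, 25 held no called gene. They include flavonoid and anthocyanin synthesis (8 measured), xylem and secondary wall (4), jasmonate response (9), abscisic acid and dehydration (13), senescence and autophagy (14), iron and metal uptake (7) and calmodulin-like proteins (8). The calmodulin-like CML42 had a log2 change of 0.33 (adjusted p = 0.13) and the senescence regulator SAG101 0.37 (adjusted p = 0.31). Over the genes of these 25 lists, 22 of 145 had an unadjusted p under 0.05, against 17% of all genes tested.

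**Figure D4:**
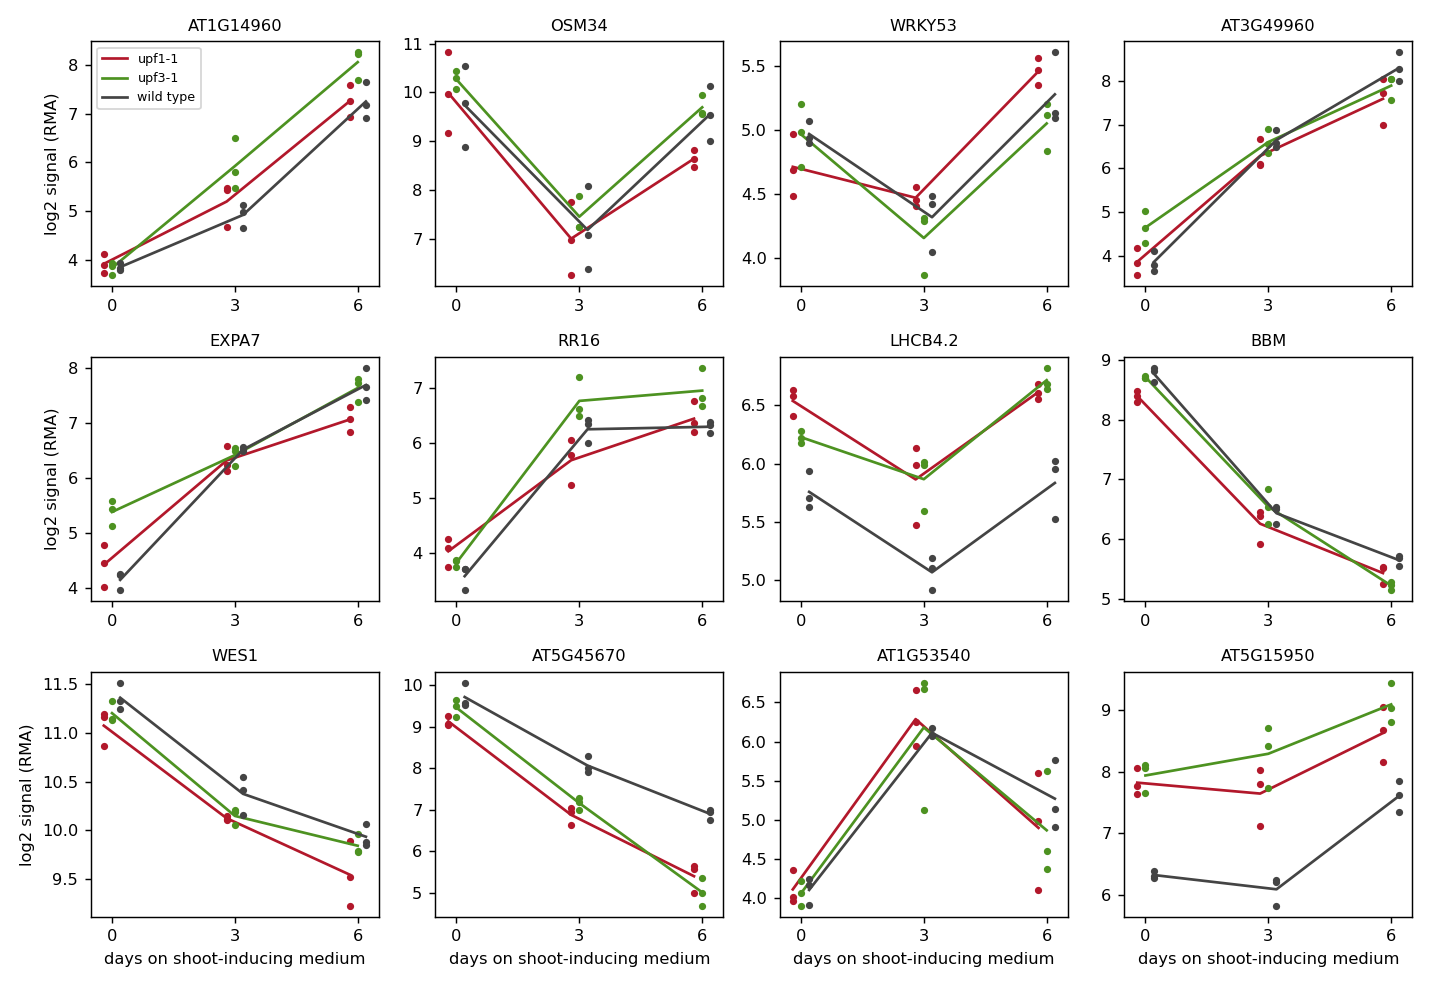
Log2 signals of 12 named genes on days 0, 3 and 6 of shoot-inducing medium in upf1-1 (red), upf3-1 (green) and the wild type (black), with 1 point per array and a line through the group means. OSM34, WRKY53 and LHCB4.2 dip on day 3, AT1G53540 peaks there, and BBM, WES1 and AT5G45670 go down throughout in all 3 genotypes.

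The same step in the other genotypes gave more calls, in a count that was not itself tested. Day 6 against day 3 called 685 genes in the wild type (5.16%, with 2.95% higher and 2.21% lower) and 1093 in upf3-1 (8.23%, with 4.14% higher and 4.09% lower), on 3 arrays a group each and with no array shared with upf1-1. The SD of the log2 change over all genes was 0.21 in upf1-1, 0.27 in upf3-1 and 0.24 in the wild type. Of the 415 genes called in upf1-1, 399 (96.1%) had the same sign in the wild type and 383 (92.3%) in upf3-1, across genes that were selected in upf1-1. Calls in the same direction numbered 207 in the wild type, which is 49.9% of the upf1-1 calls and 30.2% of the wild type's, and 209 in upf3-1, which is 50.4% and 19.1%. In all 3 genotypes 92 genes rose and 44 fell. Across all genes the changes of upf1-1 correlated at r = 0.62 with those of the wild type and 0.54 with those of upf3-1, given as a description, since genes are not independent replicates.

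A test of the difference itself called 0 of the 13286 genes between upf1-1 and the wild type, with limma and Benjamini-Hochberg adjustment. At an unadjusted p under 0.05 there were 794 (5.98%), and the smallest adjusted p was 0.13, for AT5G18840, a sugar transporter family gene singled out by that p. It had 6.75, 7.19 and 6.96 on day 6, against 6.73, 6.59 and 6.67 on day 3 of upf1-1, and the wild type means were 5.86 on day 6 and 6.72 on day 3. The median 95% interval of such a difference reached 0.29 to either side, without adjustment for the number of genes. Larger differences went uncalled too, such as the 1.16 of AT5G18840, so 0 calls do not show that the changes were alike. Leaving out 1 array gave 0 to 10 genes, the 10 without upf1-1 day 6 replicate 1. Among 9310 probe sets without a single symbol and locus, tested on their own, 4 were called in this difference.

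Several of the leading upf1-1 genes had other values in the wild type, though no such difference passed the adjusted test. AT2G25510 rose in upf1-1 and had wild type signals of 7.52, 6.75 and 7.76 on day 6, against 8.52, 7.13 and 8.34 on day 3. Its difference in the change was 2.19, with a 95% interval of 0.94 to 3.44 (unadjusted p = 0.0014, adjusted p = 0.40). AT1G19960 and AT5G39670 likewise had changes of -0.07 and -0.11 in the wild type, where both were already high on day 3, at means of 8.37 and 6.82, against 5.38 and 4.38 in upf1-1. In upf3-1 the same 2 genes changed by 1.89 and 1.34, close to upf1-1. BAT1 fell by 0.93 in upf1-1 and by 2.13 in the wild type, a difference of 1.20 with a 95% interval of 0.60 to 1.81 (adjusted p = 0.21). AT5G01870 fell by 1.38 in upf1-1 and by 0.56 in the wild type (difference -0.82, adjusted p = 0.19). RR16 changed by 0.76 in upf1-1 and by 0.05 in the wild type (difference 0.71, 95% interval 0.10 to 1.32, adjusted p = 0.79), and its means were 6.45 and 6.30 on day 6.

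Medians of the photosynthetic and root hair lists were smaller in upf1-1 than in the other genotypes. The 6 photosystem and antenna genes had a median change of 0.41 in upf1-1, 0.67 in upf3-1 and 0.84 in the wild type, and 1, 5 and 6 of them were called. For the 5 Calvin cycle genes the medians were 0.27, 0.52 and 0.73, with 0, 2 and 3 called. For the 6 root hair genes they were 0.80, 1.18 and 1.40, with 3, 6 and 5 called. For the difference from the wild type, 3 of the 6 photosystem, 3 of the 5 Calvin cycle and 1 of the 6 root hair genes had an unadjusted limma p under 0.05. Among all genes that share was 5.98%. No gene of these lists passed the adjusted test of the difference from the wild type or from upf3-1, so the lists are not shown to differ between genotypes. Heat shock genes had medians of -0.26, -0.21 and -0.25, with 6, 4 and 1 called lower. In the same order of genotypes, 5, 9 and 7 chitinases and pathogenesis-related proteins were called higher, and 0, 1 and 0 lower. Class III peroxidases had 8, 10 and 12 called higher, and 0, 5 and 1 lower. Berberine bridge-like oxidases had 5, 1 and 6 called higher and expansins 3, 4 and 5, with 0 lower.

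Against upf3-1, the difference in the change was called for 16 genes (0.12%), 12 more positive in upf1-1 (0.0903%) and 4 more negative (0.0301%). AT1G50060, a CAP family secreted protein related to PR-1, had 3.52, 3.72 and 4.05 on day 6, against 3.38, 3.19 and 3.40 on day 3 of upf1-1. In upf3-1 it averaged 4.43 on day 6 and 6.55 on day 3, so the difference of 2.57 (adjusted p = 0.0499) came with a fall in upf3-1 and no called change in upf1-1 (log2 change 0.44). The GDSL lipase AT1G75880 fell by 0.97 in upf1-1 and by 2.37 in upf3-1 (difference 1.40, adjusted p = 0.0499). AT2G18370, a lipid transfer protein, rose by 0.71 in upf1-1 and fell by 0.61 in upf3-1 (difference 1.32, adjusted p = 0.0499), and its upf1-1 call was lost without any 1 array but day 6 replicate 1 (adjusted p up to 0.211). On the other side, AT5G38710, a proline dehydrogenase, changed by -0.09 in upf1-1 and by 0.89 in upf3-1 (difference -0.98, adjusted p = 0.037). AT2G18620, of the geranylgeranyl diphosphate synthase family, and the pseudogene AT1G35280 had differences of -0.80 and -0.75. The count moved between 0 and 189 when 1 of the 12 arrays was left out, with 189 without upf3-1 day 3 replicate 2 and 0 without upf1-1 day 6 replicate 3, upf1-1 day 3 replicate 1 or upf3-1 day 6 replicate 2.

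**Figure D5:**
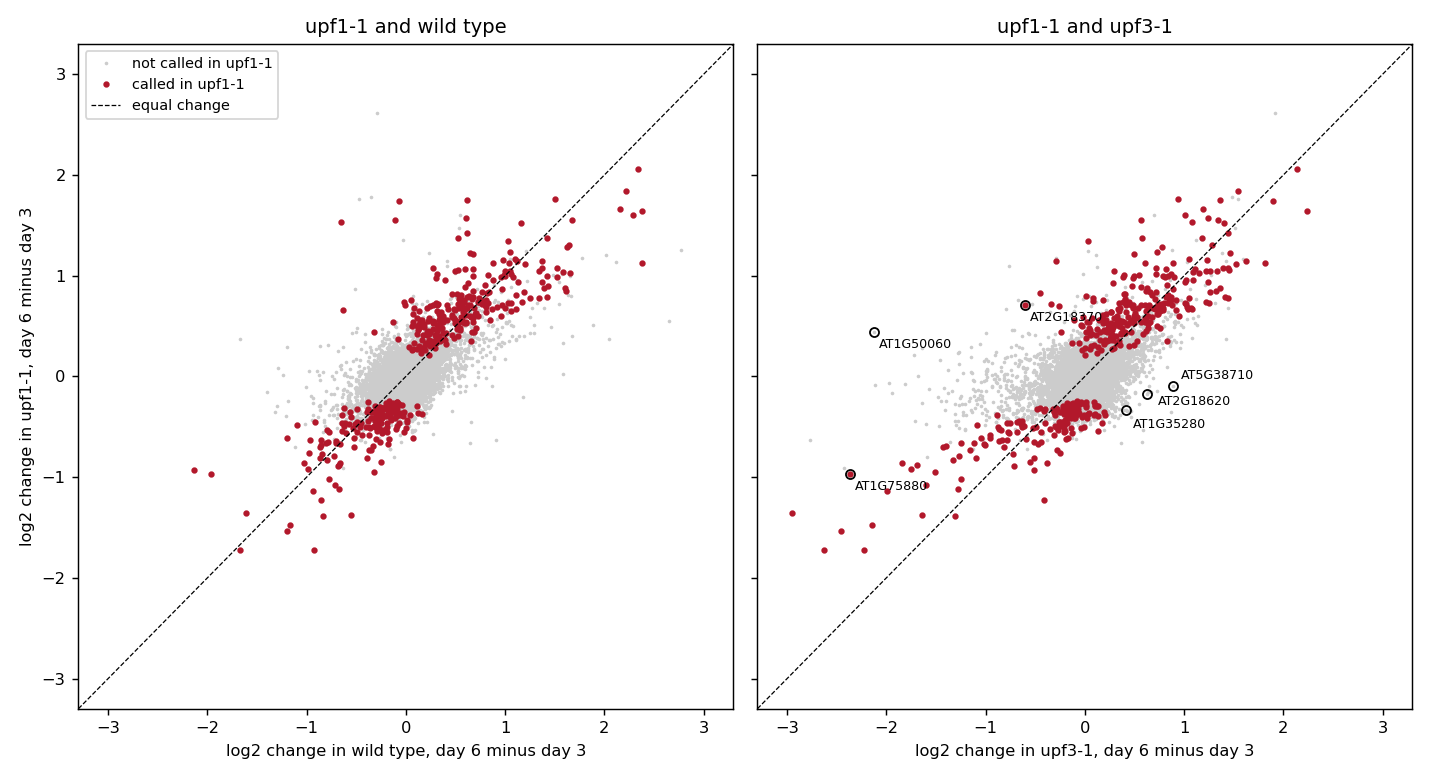
Log2 change of each gene from day 3 to day 6 in upf1-1 (vertical axis) against the same change in the wild type (left) and in upf3-1 (right), with genes called in upf1-1 in red, the line of equal change dashed and the 6 named differences from upf3-1 circled. Most red points lie in the quadrants where both changes have the same sign, as 399 of 415 do against the wild type and 383 of 415 against upf3-1.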

How the data were processed

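RNA of all 27 callus samples was hybridised to Affymetrix arrays of 22810 probe sets. The deposited values are log2 signals that the authors made with RMA, per the submitters' processing notes; a version was not found there. They were used as deposited. Signals carry no read depth, and the number of arrays limits the precision. Probe sets with 1 annotated symbol were matched to RefSeq (TAIR10.1) loci, which gave 13286 genes; a gene with several probe sets took the values of its brightest one on average. Limma 3.58.1 in R 4.3.3 fitted 1 mean per group over all 27 arrays. Contrasts were moderated with eBayes and adjusted by Benjamini-Hochberg over all genes, with calls at an adjusted p under 0.05. The code was tested on simulated data. Samples were grouped by genotype and day.

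Named genes are the 15 highest and 15 lowest called log2 changes whose arrays do not overlap, up to 4 called members of each list (or 2 with the smallest p), the 3 highest and 3 lowest called differences from upf3-1, and UPF3. Members and lists were chosen with earlier results of these data known. Alternatives covered the fit, the replicate block, scaling, dim and cross-hybridising probe sets, the variance model and leaving out each array. No sequences are shown, and UPF1 is not analysed here.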

Additional observations from a re-analysis of the deposited data

Results flagged for a closer look

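For 16 genes the change from day 3 to day 6 differed between upf1-1 and upf3-1 by a test of the difference itself (limma, Benjamini-Hochberg adjustment), and the 6 given here are the 3 most positive and the 3 most negative of them. The differences, upf1-1 minus upf3-1 on the log2 scale, were 2.57 for AT1G50060, 1.4 for AT1G75880, 1.32 for AT2G18370, -0.98 for AT5G38710, -0.8 for AT2G18620 and -0.75 for AT1G35280. Adjusted p was 0.0499 for AT1G50060, AT1G75880, AT2G18370 and AT1G35280, 0.037 for AT5G38710 and 0.026 for AT2G18620. Each call was lost under most alternatives, and none changed direction. AT1G35280 is a pseudogene whose probe set may cross-hybridise.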

How the results depend on the processing

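The 415 genes called in upf1-1 became 237 with the 6 arrays alone in the fit and 2067 with the poly-A spike-ins as scale, and 116 to 660 without 1 array. The 249 called higher became 2049 with the spike-ins and 74 to 329 without 1 array. The 166 called lower became 51 with the 6 arrays alone, 95 with the reference genes as scale, 18 with the spike-ins and 42 to 331 without 1 array. Deviations from the group means of same-numbered upf1-1 arrays of days 6 and 3 correlated at -0.0687, 0.0437 and 0.0548. Those of differently numbered arrays lay between -0.1461 and 0.1034. So few values show no sign of pairing by number but cannot exclude it. With a replicate block 357 genes were called in upf1-1 and 4 in the difference from upf3-1. The 16 genes that differed from upf3-1 became 3 with the spike-ins, 6 with the reference genes, 8 with the mean of all probe sets, 8 without possibly cross-hybridising probe sets, 0 with the groups of the contrast alone and 0 to 189 without 1 array. The difference from the wild type called 0 to 10 genes without 1 array. The wild type's 685 became 418 with its groups alone, 9618 with the spike-ins and 387 to 632 without 1 array. The 1093 of upf3-1 became 616 with its groups alone and 485 to 1315 without 1 array. The cause of these shifts was not tested.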

Other observations

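Probe sets without a single symbol and locus, which the report does not name, numbered 9310. Tested on their own, 437 were called in upf1-1 on day 6 against day 3, with 262 higher and 175 lower. In the difference between upf1-1 and the wild type in that change, 4 were called.

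Among genes that were not called, 4 had log2 changes of at least 1.5 and were singled out after their values were seen. AT3G60420 had 6.85, 6.34 and 6.98 on day 6, against 4.10, 4.31 and 3.90 on day 3 of upf1-1, a log2 change of 2.62. Its adjusted p was 0.12 in the fit of all 9 groups and 2.1e-04 with the 6 arrays alone. The largest SD of any group for this gene was 2.62, on day 0 of the wild type. AT3G28510, AT5G52760 and AT3G13610 had log2 changes of 1.78, 1.76 and 1.60, with adjusted p of 0.23, 0.14 and 0.088.

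Of 5818 pairs of neighbouring measured genes, 11 had both members called, 8 of them with both higher and 1 with both lower. The pairs are not independent, since AT1G65500 and AT5G44390 each stand in more than 1 of them. Whether the count exceeds that of random pairs, with 3.12% of all genes called, was not tested. The lower pair was AT1G09300 and AT1G09310.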
